A study of Mus musculus with 6 samples.

Results

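The glomerular basement membrane chains and linkers are followed here at the transcript level in cultured mouse podocytes depleted of Tfeb. The 10 genes are the type IV collagen chains Col4a1, Col4a2, Col4a3, Col4a4 and Col4a5, the laminin chains Lama5, Lamb2 and Lamc1, and the nidogens Nid1 and Nid2. They were chosen by gene name, without use of their values, from a table of 53715 genes, and each name matched 1 gene measured in all 6 libraries. Levels are in FPKM (fragment counts corrected for gene length and library depth), so that levels of different genes can be set side by side. After Tfeb siRNA, Nid2 and Col4a3 fell, Nid1 and Lamc1 rose by small amounts, and the other 6 did not pass the test.

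The glomerular basement membrane lies between podocytes and endothelium and is part of the filter of the kidney. Type IV collagen chains assemble inside the cell as trimers: alpha1 and alpha2 form the network of most basement membranes, and alpha3, alpha4 and alpha5 form the network of the mature glomerular membrane, whose loss causes Alport syndrome. Laminin trimers of an alpha, a beta and a gamma chain form a second network; the mature glomerular form uses alpha5, beta2 and gamma1, and loss of beta2 causes Pierson syndrome. Nidogens bind both laminin gamma1 and type IV collagen and link the networks.

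All 6 libraries came from an immortalized mouse podocyte line labelled as kidney. Cells proliferated at 33 °C in 10% serum with interferon gamma and differentiated at 37 °C in 5% serum with 12 mg/ml type I collagen for 10 to 14 days. The control group, of genotype WT, received a scrambled siRNA, and the other group, of genotype TFEB knockdown, received an siRNA to that gene, with 3 libraries each. A single line grown without endothelium, which also contributes chains to this membrane in the kidney, limits the cells as a model of it. Nothing in the labels says that replicates were separate cultures, so the p-values speak only of the spread among these 6 libraries, which may be technical.

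Tfeb, the target, was at 1.80, 2.05 and 2.27 FPKM in the scrambled libraries and at 0.639, 0.714 and 0.822 FPKM in those given its siRNA (log2 fold change -1.05, limma adjusted p = 0.00148). Libraries held 18062898 to 20610888 derived reads. The groups separated on the first principal component (53.0% of the variance), and replicate 1 of both groups stood apart on the second (19.3%). The podocyte label was only partly borne out by markers. Of 16 podocyte markers, 9 passed the filter on low values (at least 1 FPKM on average), with a summed level of 487 to 510 FPKM in scrambled and 483 to 502 FPKM in Tfeb siRNA libraries, but defining markers were near 0. Nphs1, nephrin of the slit diaphragm, had 96 reads in all scrambled and 25 in all Tfeb siRNA libraries, and Wt1 averaged 0.504 and 0.373 FPKM. Markers of mesangium and smooth muscle, 3 of 8 at 1 FPKM or more, summed to 1498 to 1611 FPKM in scrambled and 1433 to 1457 FPKM in Tfeb siRNA libraries, nearly all of it Acta2. Tubule markers, 3 of 8 at 1 FPKM or more with Umod at 0, summed to 227 to 289 and 235 to 274 FPKM, and parietal epithelium markers, 5 of 8, to 84.0 to 93.4 and 86.7 to 98.7 FPKM. Glomerular endothelium markers, 1 of 8 with Emcn at 0, summed to 12.8 to 13.4 and 10.1 to 11.8 FPKM. Leukocyte markers, 2 of 7 with Cd3e among those at 0, summed to 9.16 to 11.1 and 6.12 to 7.26 FPKM, and keratinocyte markers, 3 of 8, to 5.15 to 6.17 and 5.46 to 5.51 FPKM. The sums of the mesangial, endothelial and leukocyte markers were thus lower in every Tfeb siRNA library, as were Nid2 and Col4a3. Few genes made up these sums. Acta2 was not called (limma adjusted p = 0.276). The endothelial sum was mostly Ehd3 (11.8 and 9.74 FPKM on average), with Pecam1 at 0.108 and 0.101 FPKM. The leukocyte sum was mostly Cd68 (5.76 and 4.56 FPKM) and Csf1r (4.25 and 2.24 FPKM), with Ptprc at 0.0262 and 0.0178 FPKM. The part of these markers in the results below was not tested. In these bulk samples fewer cells of a type and less RNA per cell cannot be told apart.

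All 10 genes passed the filter, with 4 of them (40%) called at a limma adjusted p below 0.05. Among all 12257 tested genes 33.3% were called, so the share of members is near the background. The 2 called higher stand beside 16.9% of tested genes called higher, and the 2 called lower beside 16.4% called lower. In 6 of the 10 the 2 groups of libraries did not overlap, which held for 48.7% of tested genes. The median log2 fold change was -0.07 over the members and 0.02 over all tested genes.

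**Figure D1:**
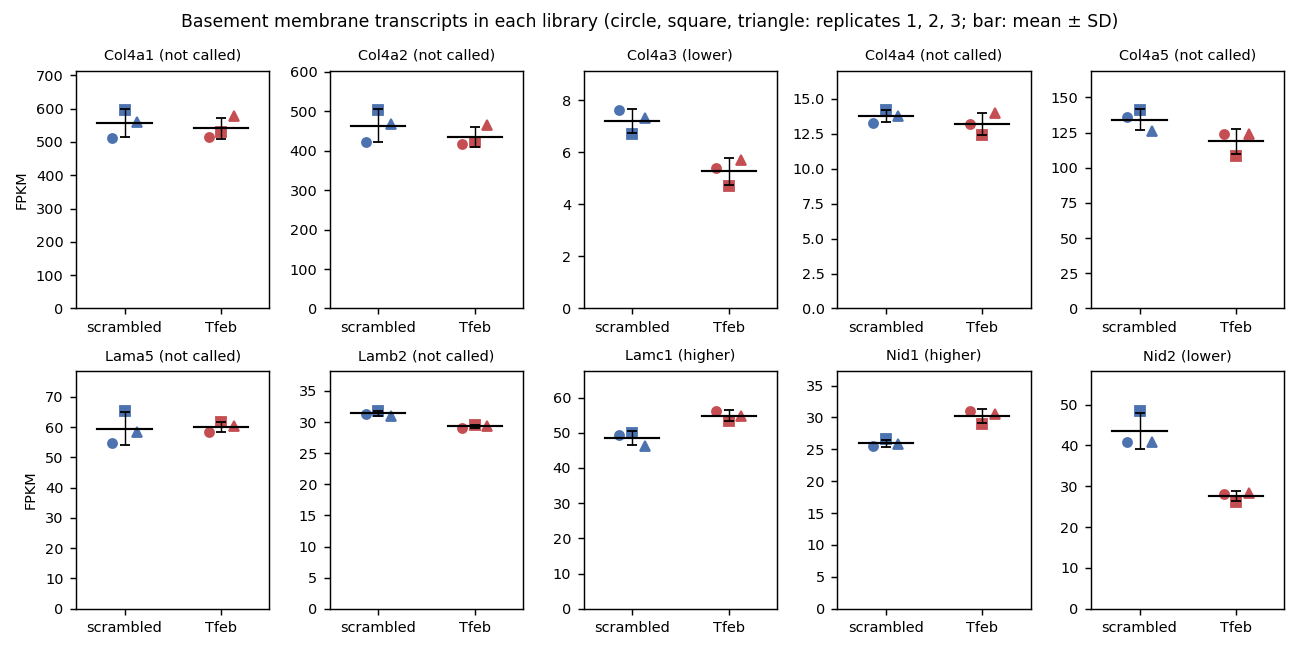
FPKM of each of the 10 transcripts (vertical axes, starting at 0) in the 3 scrambled and 3 Tfeb siRNA libraries, with the mean and SD of each group. Nid2 and Col4a3 lie lower, and Nid1 and Lamc1 higher, in every Tfeb siRNA library than in any scrambled library.

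The collagen genes lie in head-to-head pairs in mm10. Col4a1 (ENSMUSG00000031502, chromosome 8, 11198423 to 11312826, minus strand) and Col4a2 (ENSMUSG00000031503, chromosome 8, 11312805 to 11449287, plus strand) overlap by 22 bases at their starts. Col4a4 (ENSMUSG00000067158, chromosome 1, 82448423 to 82586849, minus strand) and Col4a3 (ENSMUSG00000079465, chromosome 1, 82586921 to 82722059, plus strand) are separated by 71 bases. Col4a5 (ENSMUSG00000031274, X chromosome, 141475385 to 141689234, plus strand) starts 1308 bases from Col4a6, which was below the filter. The sequence between Col4a4 and Col4a3 is shown because 1 gene of that pair changed and the other did not pass the test. A stretch before the start of Col4a2, within Col4a1, is shown because neither gene of that pair passed. This stretch was picked because it holds CCAAT and GGGCGG, so the motifs in it follow from the choice. It cannot be compared with the 71 bases, which were not picked by motif. Both printed sequences are on the plus strand, from RefSeq promoter windows of GRCm38.p6, with CCAAT and GGGCGG or their complements in capitals.
Col4a4 to Col4a3, chr1:82586850-82586920: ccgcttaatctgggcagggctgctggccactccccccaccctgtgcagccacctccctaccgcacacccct
Col4a2, chr8:11312757-11312786: CCGCCCgaggagctccCCAATttgttggcg
None of the motifs searched was found in the 71 bases between Col4a4 and Col4a3, of which 69.0% were G or C.

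Col4a1 and Col4a2 were by far the most abundant members and did not pass the test. Values are given in the order of replicates 1, 2 and 3, first for scrambled and then for Tfeb siRNA libraries. Col4a1, the alpha1 chain, was at 511, 595 and 560 FPKM, then at 514, 530 and 577 FPKM. It ranked 40 of the 12257 tested genes by mean level. The groups overlapped (log2 fold change -0.04, SE 0.08, limma adjusted p = 0.747), with a 95% interval of the fold of 0.856 to 1.11. Col4a2, the alpha2 chain, was at 421, 503 and 468 FPKM and at 416, 423 and 464 FPKM, also overlapping (log2 fold change -0.09, SE 0.08, limma adjusted p = 0.433, fold interval 0.819 to 1.08). The 2 transcripts followed each other across the 6 libraries, with scrambled replicate 2 highest in both (Pearson r = 0.964 on the log2 scale, a description over libraries that share depth and treatment). Antisense genes overlap both, Gm15418 by 6081 bases of Col4a1 at 2.20 and 2.32 FPKM in the 2 groups, and Gm15419 within Col4a2 at 0.516 and 0.589 FPKM. Reads of such partners cannot be told apart, since no source used here says whether strand was used in counting.

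Col4a3 fell while Col4a4, its neighbour and trimer partner, did not pass the test. Col4a3, the alpha3 chain, whose last domain holds the Goodpasture antigen, was at 7.61, 6.69 and 7.31 FPKM, then at 5.39, 4.71 and 5.72 FPKM. Every Tfeb siRNA library lay below every scrambled one, with means of 7.20 ± 0.470 and 5.27 ± 0.516 FPKM (SD, n = 3), a 1.37-fold lower level. The log2 fold change was -0.42 with an SE of 0.09 (limma adjusted p = 0.0102), resting on 4483 and 3015 reads, and the call held under all 13 alternative settings (adjusted p 0.00116 to 0.0385). Col4a4, the alpha4 chain, was at 13.3, 14.2 and 13.8 FPKM and at 13.2, 12.4 and 14.0 FPKM. Its groups overlapped (log2 fold change -0.06, SE 0.06, limma adjusted p = 0.4997, fold interval 0.871 to 1.06).

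Col4a5, the alpha5 chain and the gene of X-linked Alport syndrome, was the most abundant of the 3 chains of the mature network, at 136, 141 and 126 FPKM, then at 124, 108 and 124 FPKM. The groups did not overlap, but the gap between the nearest libraries was small and the difference did not pass the main test (log2 fold change -0.18, SE 0.07, limma adjusted p = 0.107). With limma's voom on the derived reads it did (log2 fold change -0.19, adjusted p = 0.0377).

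**Figure D2:**
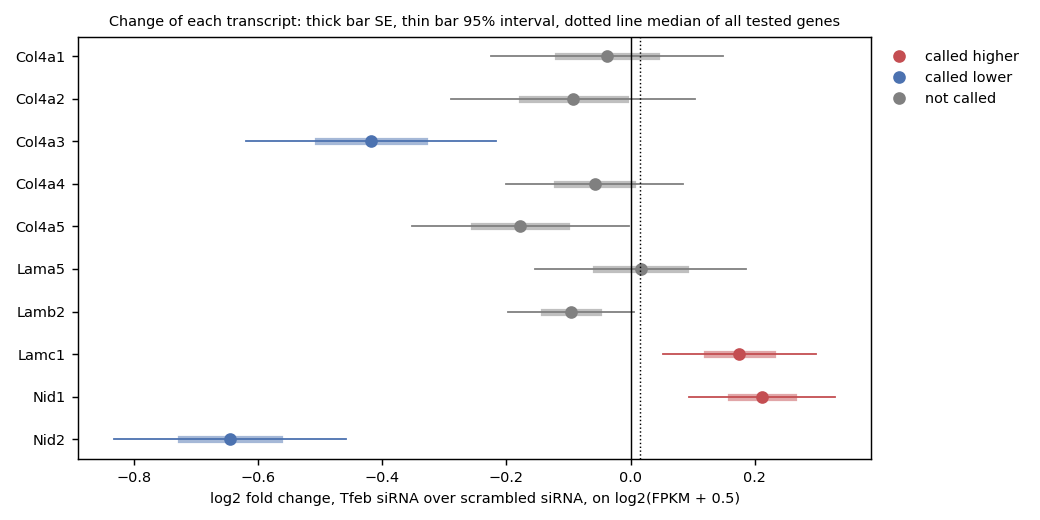
Log2 fold change of each transcript (horizontal axis, Tfeb siRNA over scrambled siRNA, on log2(FPKM + 0.5)), with SE and 95% interval, and the median of all tested genes (0.02) as a dotted line. Nid2 (-0.65) and Col4a3 (-0.42) lie farthest below 0, and Nid1 (0.21) farthest above.

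Of the laminin chains, only Lamc1 passed the test, and its call was lost whichever library was left out. Lama5 (ENSMUSG00000015647, chromosome 2, 180176373 to 180225859, minus strand), the alpha chain, whose end binds receptors on cells, was at 54.7, 65.4 and 58.4 FPKM, then at 58.3, 61.5 and 60.3 FPKM. The scrambled libraries enclosed the other group (log2 fold change 0.02, SE 0.07, limma adjusted p = 0.885, fold interval 0.898 to 1.14). Lamb2 (ENSMUSG00000052911, chromosome 9, 108479736 to 108490530, plus strand), the beta chain of the mature membrane, was at 31.2, 31.8 and 31.0 FPKM and at 29.1, 29.5 and 29.3 FPKM. The groups did not overlap and the replicates were close together, yet the difference did not pass (log2 fold change -0.10, SE 0.04, limma adjusted p = 0.132). Lamc1 (ENSMUSG00000026478, chromosome 1, 153218922 to 153332786, minus strand), the gamma chain shared by most laminins and the one nidogens bind, was at 49.4, 49.99 and 46.2 FPKM and at 56.3, 53.3 and 54.9 FPKM. It rose 1.13-fold, with no overlap (limma adjusted p = 0.0397). The call was lost without each of the 6 libraries in turn (adjusted p 0.0592 to 0.136), with no filter on low values (0.0619) and on the TPM scale (0.123).

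Nid1 and Nid2 moved in opposite directions. Nid2 (ENSMUSG00000021806, chromosome 14, 19751265 to 19811787, plus strand) was at 40.9, 48.5 and 40.9 FPKM, then at 28, 26.2 and 28.4 FPKM. Every Tfeb siRNA library was far below the lowest scrambled one. The means were 43.4 ± 4.40 and 27.5 ± 1.197 FPKM (SD, n = 3), a 1.58-fold lower level resting on 14030 and 8179 reads. Nid2 had the largest change of the 10 members (log2 fold change -0.65, SE 0.08, limma adjusted p = 0.00144). Its call held under all 13 alternatives (adjusted p 3.78e-05 to 0.00761). Rtraf, on the opposite strand, overlaps the end of Nid2 by 437 bases and averaged 13.5 FPKM in scrambled and 18.9 FPKM in Tfeb siRNA libraries.

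Nid1 (ENSMUSG00000005397, chromosome 13, 13437551 to 13512269, plus strand) was at 25.5, 26.6 and 25.9 FPKM, then at 31.1, 29 and 30.5 FPKM. The 2 groups were apart, with means of 26.0 ± 0.557 and 30.2 ± 1.09 FPKM (SD, n = 3), a 1.16-fold rise (log2 fold change 0.21, SE 0.05, limma adjusted p = 0.0169). The call was lost without scrambled replicate 3 (adjusted p = 0.0603), Tfeb siRNA replicate 1 (0.0542) or Tfeb siRNA replicate 3 (0.0540). Of its 50-base words, 2.09% recur in another gene. Nid2 was the more abundant nidogen in each scrambled library and Nid1 in each Tfeb siRNA library.

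Ratios were computed within each library, some of partners in a trimer and others, such as Nid1 to Nid2, of genes that are not. The ratio of Nid1 to Nid2 was 0.623, 0.548 and 0.632, then 1.11, 1.11 and 1.07, a 1.83-fold difference. Its groups lay far apart (exact permutation p = 0.1, the smallest that 3 against 3 libraries allow, two-sided; 0.14 adjusted over the 7 ratios computed). That they did not overlap follows from Nid1 being higher and Nid2 lower in every Tfeb siRNA library. The ratio of Col4a3 to Col4a4 was 0.573, 0.472 and 0.530, then 0.408, 0.379 and 0.409 (exact permutation p = 0.1, adjusted 0.14). Relative to its partner, too, Col4a3 was lower in each Tfeb siRNA library than in any scrambled one.

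Both laminin ratios that hold Lamb2 lay lower in each Tfeb siRNA library. For Lamb2 to Lamc1 this follows from the levels above, with Lamb2 lower and Lamc1 higher in every Tfeb siRNA library. The larger change was that of Lamc1 (log2 fold change 0.175, against -0.10 for Lamb2, which was not called). Lamb2 to Lamc1 was 0.647 ± 0.0212 in scrambled and 0.535 ± 0.0189 in Tfeb siRNA libraries, and Lamb2 to Lamb1, the beta chain of immature glomerular laminin, was 0.268 ± 0.00937 and 0.237 ± 0.00644 (SD, n = 3). Neither pair of groups overlapped (exact permutation p = 0.1, adjusted 0.14, for each). Col4a1 to Col4a2 was 1.198 ± 0.0155 and 1.24 ± 0.0102, also without overlap at the same p. The ratio of Lama5 to Lamc1 (1.23 ± 0.105 and 1.10 ± 0.0600; unpaired exact permutation p = 0.2, adjusted 0.233) and that of the summed alpha3, alpha4 and alpha5 to the summed alpha1 and alpha2 (0.153 ± 0.0133 and 0.141 ± 0.0112; unpaired exact permutation p = 0.4) overlapped between groups. Within each of the 3 replicate numbers both were lower in the Tfeb siRNA library. That does not set them apart, since every other ratio computed also moved in a single direction within all 3 numbers. Lama5 to Lamc1 was 1.11, 1.31 and 1.26 in scrambled replicates 1, 2 and 3 against 1.03, 1.15 and 1.098 in the Tfeb siRNA libraries of those numbers. The ratio of the summed collagen chains was 0.168, 0.147 and 0.143 against 0.153, 0.132 and 0.138. No paired test of the ratios was run.

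**Figure D3:**
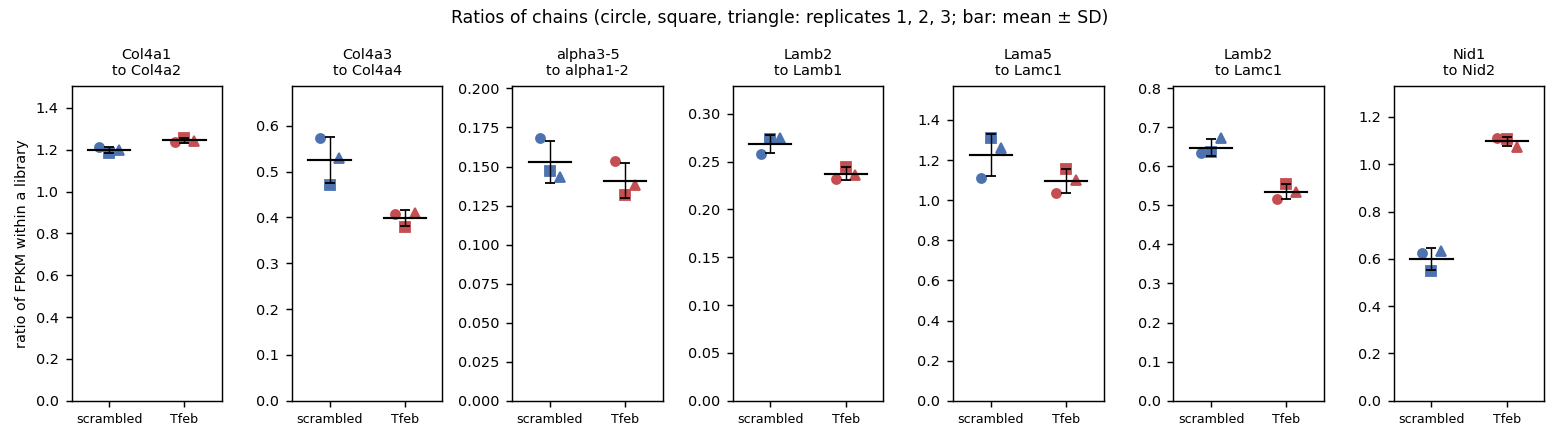
Ratio of FPKM of 2 chains, or sums of chains, within each library (vertical axes, starting at 0), with the mean and SD of 3 libraries a group. The Nid1 to Nid2 ratio moved from 0.548–0.632 to 1.07–1.11, and the Col4a3 to Col4a4 ratio from 0.472–0.573 to 0.379–0.409.

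In sums, the 2 nidogens together were at 69.4 ± 4.93 FPKM in scrambled and 57.7 ± 2.24 FPKM in Tfeb siRNA libraries, and the alpha3, alpha4 and alpha5 chains together at 155 ± 7.39 and 137 ± 10.2 FPKM (SD, n = 3). In both sums the groups did not overlap (exact permutation p = 0.1, adjusted over the 5 sums 0.25). The alpha1 and alpha2 chains summed to 1019 ± 83.0 and 975 ± 58.2 FPKM, the Lama5, Lamb2 and Lamc1 chains to 139 ± 6.82 and 144 ± 0.444 FPKM, and all 10 members to 1383 ± 95.7 and 1314 ± 63.9 FPKM. Those 3 sums overlapped between groups (exact permutation p = 0.6, 0.4 and 0.3). Col4a5 dominates the sum of the mature chains, so the sum says little of Col4a3.

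The composition of the collagen and laminin transcripts was that of the alpha1 and alpha2 network and of beta1 laminin. Of the summed FPKM of the type IV collagens, Col4a1 made up 47.3% in scrambled and 48.6% in Tfeb siRNA libraries, and Col4a2 39.4% and 39.0%. Col4a5 made up 11.5% and 10.7%, Col4a4 1.17% and 1.19%, and Col4a3 0.617% and 0.474%. The alpha3 chain was the scarcest of the 10 members in both groups. Of the laminin beta chains, Lamb1 held 78.3% and 80.2% and Lamb2 21.01% and 19.0%. Of the alpha chains Lama5 held 97.3% and 98.9%, and of the gamma chains Lamc1 held 94.7% and 94.9%.

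**Figure D4:**
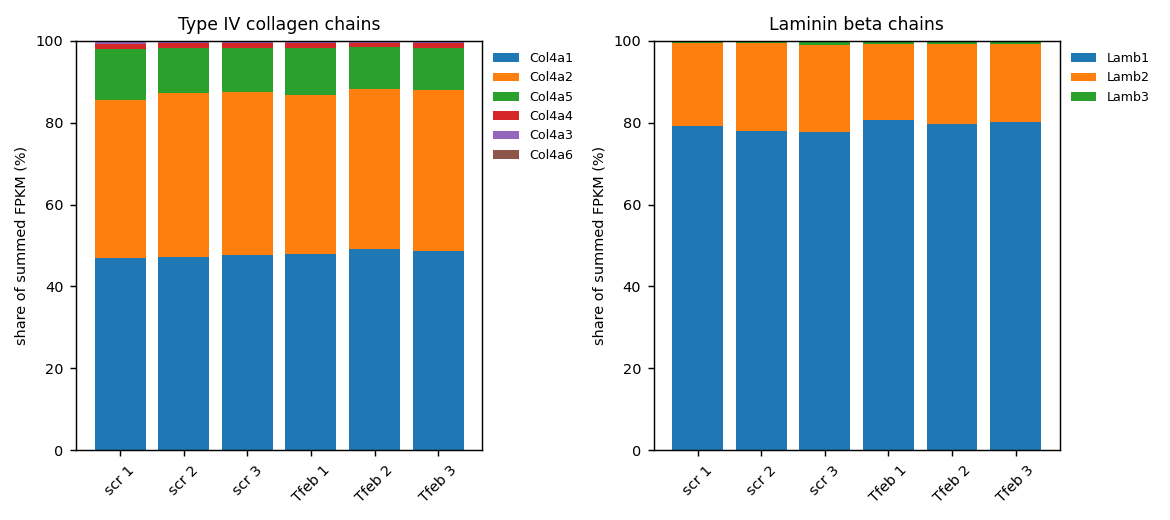
Share of summed FPKM (%) held by each type IV collagen chain (left) and each laminin beta chain (right) in the 6 libraries (scr: scrambled siRNA; Tfeb: Tfeb siRNA). Col4a1 and Col4a2 dominate every library, Col4a3 holds under 1%, and Lamb2 holds 21.01% of beta chains in scrambled and 19.0% in Tfeb siRNA libraries on average.

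Across the 6 libraries Nid1 went with Lamc1 (Pearson r = 0.939) and against Nid2 (r = -0.854) and Lamb2 (r = -0.924), while Col4a3 went with Nid2 (r = 0.866) more than with Col4a4 (r = 0.591). These are descriptions over libraries that share the group difference. Outside the members, the pattern of Col4a3 was most like that of Igf1 (r = 0.996), Scyl3 (0.996) and Bri3bp (0.994), and that of Nid1 most like Ints9 (0.998) and Gm18588 (0.997). Col4a1 was closest to Apba3 (0.979), Stard7 (0.976) and Ifitm10 (0.974), and Lama5 to Gar1 (0.983), Mri1 (0.978) and H2-T23 (0.974).

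Sequence features of the members were searched next. RefSeq promoter windows of GRCm38.p6, from 250 bases before to 50 after a start, were matched for 7 of the 10 members, all but Col4a3, Lamc1 and Nid2. Those without a window are all among the called members, of which only Nid1 was searched with a window of its own. The E-box CACGTG, the core of the motif bound by TFEB, was in 0 of these 7 windows. It was in 7.15% of 32851 windows of the same length, both strands searched. With so few windows, 0 does not set the members apart from that share. CCAAT was in those of Col4a1, Col4a2, Col4a5 and Nid1 (37.4% of all windows), GGGCGG in those of Col4a1, Col4a2, Col4a5, Lama5 and Nid1 (35.7%), and TATAAA in none (13.6%). Such a search says only that these letters are or are not in the window.

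Words of 7 bases in 3′ UTRs were then counted on the transcript strand. An earlier analysis of these data had picked 8 words because transcripts holding them were lower or higher after the siRNA, so the shares that follow describe that choice and support nothing. Of the words picked for lower transcripts, CTACATA was in 10.6% of 3′ UTRs, while TACATAA was in 12.6%, the word GGCCATG in 13.5% and the word GCCATGA in 10.99%. Of those picked for higher transcripts, TCGGAGA was in 2.62%, while CGGAGAA was in 3.19%, the word TGTCACG in 3.62% and the word GTCACGA in 1.84%. Of 10474 tested genes with a 3′ UTR, 33.5% held 1 or more of the first 4 words, with 25.7% of them called lower against 13.9% of the others. The other 4 words were in 9.36%, of which 31.7% were called higher against 16.5% of the rest. The sites of 4 members are shown because they include 2 of the 4 that changed, Col4a3 and Lamc1. The word is in capitals, its position counted from the first base of the longest 3′ UTR of GENCODE M21. In Col4a4, TACATAA starts at position 2438 and overlaps the site at 2437, so it is not printed on a line of its own.
Col4a3, position 908: gctctaaacagTACATAAcatggatttac
Col4a3, position 980: cacacacgtacGCCATGAtttttatgtta
Col4a4, position 2437: cacgtgccttgCTACATAacaatgttaaa
Col4a4, position 4454: atttgctgtatTGTCACGtacaatgtggc
Col4a5, position 52: atatatatacaTACATAAactattatatg
Lamc1, position 1909: ctgtctccatcTCGGAGAttgccacaaaa
Col4a3 (3′ UTR of 3175 bases) and Col4a4 (4708 bases) each held 2 words of the first kind, those of Col4a4 overlapping. Col4a5 (1110 bases) held 1. Of the genes searched, 33.5% held 1 or more, a share that was not matched for UTR length. Col4a4 and Lamc1 (2551 bases) each held 1 word of the second kind. None was found in the UTRs of Nid2 (591 bases long), Nid1 (2202), Col4a1 (1708), Col4a2 (971), Lama5 (174) or Lamb2 (110). Whether the words have a part in the changes of the members was not tested. Whether these words match the siRNAs was not tested, since no source used here gives the siRNA sequences.

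The chains that could stand in for members were low or did not pass the test. Of 9 other type IV collagen and laminin chains, 3 passed the filter and 0 were called by limma (0 with an unadjusted p below 0.05). Among all tested genes 33.3% were called. Lamb1, the beta1 chain, was at 117 ± 4.13 FPKM in scrambled and 124 ± 2.41 FPKM in Tfeb siRNA libraries (adjusted p = 0.268), and Lamb3, the beta chain of epidermal laminin, at 1.03 and 1.22 FPKM (0.463). Below the filter, Lama3 had 603 and 199 reads and Lama1, the alpha chain of immature basement membranes, 409 and 153 reads in the 2 groups. Those 2 were called lower with no filter and on the TPM scale.

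Among proteins that join the membrane, 3 rose and 3 fell of 12 tested of 22 listed (median log2 fold change 0.17). That is 50% called, against 33.3% of all tested genes. Fbln2, fibulin-2, which binds laminins and nidogens, fell from 226 ± 10.7 FPKM to 82.9 ± 0.429 FPKM (log2 fold change -1.44, limma adjusted p = 6.66e-05). Npnt, nephronectin, a ligand of integrin alpha8, fell from 67.7 ± 7.66 to 48.7 ± 4.10 FPKM (adjusted p = 0.0107). Ntn1, netrin-1, a laminin-related guidance cue, rose from 28.6 ± 2.34 to 47.9 ± 2.70 FPKM (0.00081). Ecm1 rose from 78.8 ± 7.20 to 104 ± 12.0 FPKM (0.0241), a call lost without scrambled replicate 1 or 2 or Tfeb siRNA replicate 1 or 3 (0.0512 to 0.0596) and with no filter (0.0684). Agrn, agrin, the main heparan sulfate proteoglycan of the mature glomerular membrane, named here after its values were seen, rose from 76.9 ± 8.40 to 99.3 ± 3.28 FPKM (limma adjusted p = 0.0135, and 0.0507 without scrambled replicate 3).

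Of receptors for the membrane, 6 rose and 3 fell of 15 tested of 18 listed (median 0.16). The share called was 60%, against 33.3% of all tested genes. Itga3, integrin alpha3, the laminin receptor subunit that podocytes need to hold to this membrane, rose from 270 ± 23.0 FPKM to 427 ± 14.1 FPKM (log2 fold change 0.67, limma adjusted p = 0.0011). Itgb1, the beta1 subunit that pairs with it, is named here outside the rule given below. It fell from 1145 ± 42.8 to 966 ± 41.9 FPKM (log2 fold change -0.24, limma adjusted p = 0.0295), a call lost in 6 of the 13 alternatives. Itgb5, integrin beta5, a subunit of a vitronectin receptor, rose from 79.9 ± 5.51 to 161 ± 7.21 FPKM (0.00025). Bcam, a receptor of laminin alpha5, fell from 14.8 ± 1.15 to 10.99 ± 1.23 FPKM (0.0136, and 0.0505 without scrambled replicate 3). Cd151, a tetraspanin that binds integrin alpha3, fell from 148 ± 3.66 to 122 ± 5.64 FPKM (0.0084).

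Of 22 tested genes of 24 for collagen folding, secretion and crosslinking, 6 rose and 3 fell (median 0.04). The share called was 40.9%, against 33.3% of all tested genes. P3h1, a prolyl 3-hydroxylase, rose from 16.4 ± 0.833 to 27.6 ± 1.80 FPKM (limma adjusted p = 0.000599), and Loxl2, a lysyl oxidase that crosslinks type IV collagen, from 15.6 ± 0.670 to 23.8 ± 1.15 FPKM (0.000791). Lox fell from 45.02 ± 2.95 to 30.9 ± 4.78 FPKM (0.0117) and Loxl4 from 13.7 ± 0.661 to 9.54 ± 0.750 FPKM (0.00253), so genes of 1 enzyme family moved both ways. Among proteases and inhibitors, 3 rose and 6 fell of 15 tested of 19 (median -0.14), so that 60% were called. Mmp10, stromelysin-2, fell from 12.2 ± 0.971 to 5.41 ± 0.653 FPKM (0.000494) and Plau, the urokinase plasminogen activator, from 102 ± 7.13 to 65.2 ± 3.30 FPKM (0.000992). Mmp9, a gelatinase that cleaves type IV collagen, rose from 1.59 ± 0.302 to 3.50 ± 0.595 FPKM (0.00456), and Htra1, a serine protease, from 32.1 ± 1.29 to 46.1 ± 2.23 FPKM (0.00105). The called members ranged from -0.65 (Nid2) to 0.21 (Nid1) on the log2 scale, and nothing is read as particular to any list.

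**Figure D5:**
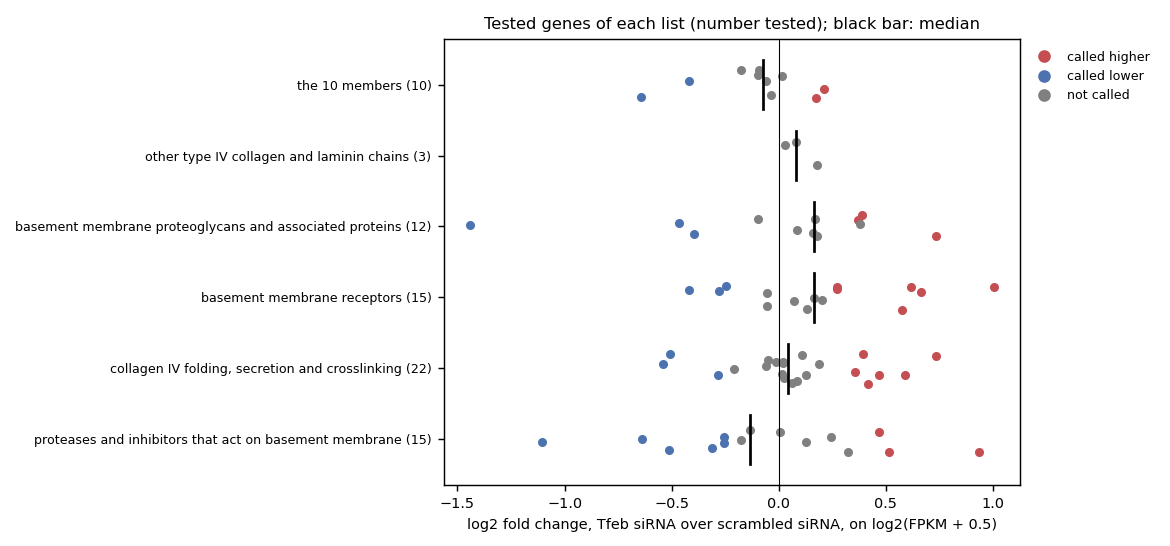
Log2 fold change (horizontal axis, on log2(FPKM + 0.5)) of each tested gene in the 10 members and the 5 related lists, with calls in colour and the median of each list as a black bar. The median of the members is -0.07 and the list medians lie between -0.14 and 0.17, while single genes reach from -1.44 (Fbln2) to 1.004 (Itgb5).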

How the data were processed

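The authors deposited 1 table of FPKM per gene, with 1 column for each of the 6 libraries (0 columns of other samples), per the file headers. The submitters' processing notes name mm10; the aligner, counter, annotation release and strand setting were not given in the sources used here. Whole reads per gene were derived from the FPKM and gene length (100% of values whole at a tolerance of 1e-06) and cover counting error only. No 2 libraries agreed within sampling noise (chi-square per gene 4.70 to 8.93 within a group).

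The 2 groups were set against each other on log2(FPKM + 0.5), which understates changes of low genes, with limma 3.58.1 (R 4.3.3). Genes averaging at least 1 FPKM were tested, two-sided with a mean-variance trend, and called where the p adjusted by Benjamini-Hochberg over all 12257 genes was below 0.05. All adjusted p of genes are limma's. Sums and ratios were computed in Python 3.11.15 and tested by exact permutation. The fit was also run on simulated counts with 200 changed genes, far fewer than were called here, and no result above rests on that run. Alternatives were another pseudocount, filter, scale, weighting, voom, a replicate block and leaving out each library.

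The members and lists were chosen with earlier results of these data known. Named genes are the members, Tfeb, Lamb1, the genes closest in pattern to 4 members, and in each list the 2 called genes with the largest rise and the 2 with the largest fall, or the 2 of smallest p in a list with no call. Not every gene the rule picks is reported here. Agrn, Itgb1, the markers and the low or overlapping genes given with the members are outside that rule. The main fit had no replicate block. Residuals of same-numbered libraries correlated at 0.382, 0.129 and 0.166, all above 0.1, by which the numbers pair the libraries; this rests on the data, not on the labels, and scrambled replicate 3 with Tfeb siRNA replicate 2 also reached 0.106. The block was used only in the alternative fit, and the sums and ratios were tested unpaired. GENCODE M21 held 99.9% of tested gene identifiers, and the coordinates of all 10 members were the same there.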

Additional observations from a re-analysis of the deposited data

How the results depend on the processing

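Nid2 and Col4a3 kept their calls under all 13 alternatives. The members called lower were 2 in 12 of these and 3 with voom, where Col4a5 was called too. The members called higher, 2 in the main analysis, were 1 with no filter on low values and 1 on the TPM scale, and 0 to 1 when each library was left out in turn, because Lamc1 or Nid1 missed the threshold. In the list of other type IV collagen and laminin chains, 2 genes were called with no filter and 2 on the TPM scale, against 0, since Lama1 and Lama3 then entered the test or passed it. With the replicate block the members called were again 2 higher and 2 lower (Nid2 adjusted p = 0.00381, Col4a3 0.00496, Nid1 0.0217, Lamc1 0.0342, limma), and over all genes 4928 were called against 4080; the block changed no call of a member. Leaving out 1 library left 2772 to 3404 genes called. No called result reversed; Col4a1 and Lama5, which were not called, changed sign in some settings (log2 fold change -0.10 to 0.01 and -0.04 to 0.09). The log2 ratio of Nid1 to Nid2 stayed between 0.81 and 0.91 and that of Col4a3 to Col4a4 between -0.47 and -0.33 when libraries were left out. With 3 libraries a group no permutation test can go below 0.1, so sums and ratios cannot pass the threshold.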
